A study of Gallus gallus with 4 samples.

Results

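The proteasome subunits and the enzymes that attach or remove ubiquitin were examined in the primitive streak region of the chicken embryo. This region holds presomitic mesoderm progenitors among other cells. The genes were chosen by name. Every probe set whose single platform symbol began with PSMA to PSMG and a number, UBE2, UBA or CUL and a number, USP and a number, or FBXL, FBXO or FBXW and a number was taken. This gave 357 probe sets of 37695 on the array, which stand for 161 genes of the 13009 with a symbol. They comprised 57 probe sets for 36 proteasome genes, 10 for 4 UBA genes, 49 for 24 UBE2 genes, 20 for 7 cullins, 102 for 47 F-box genes and 116 for 41 USP genes. Another 3 probe sets matched by name alone, because PSMC3IP codes for a recombination factor and USP6NL for a regulator of Rab GTPases. In these gene names PSM stands for proteasome subunit, whereas the presomitic mesoderm, also abbreviated PSM in the field, is here written out.

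The ubiquitin system tags proteins for destruction or for a change of activity. A UBA enzyme (E1) activates ubiquitin or a related modifier, a UBE2 enzyme (E2) carries it, and a ligase passes it to the target protein. Cullins are the scaffolds of a large family of ligases, F-box proteins are the receptors that bring targets to the cullin CUL1, and USP proteins cut ubiquitin off again. Tagged proteins are unfolded and cleaved by the proteasome, a barrel of PSMA and PSMB rings capped by a regulatory particle of PSMC and PSMD subunits. In embryos this system sets the lifetime of cell cycle regulators, of beta-catenin and of the oscillating proteins of the segmentation clock. The roles given below were established in mammals or yeast.

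All embryos were chicken, electroporated with a plasmid at stage 5 of the Hamburger and Hamilton series after 24 h of incubation at 38 °C, cultured outside the egg for another 14 h and dissected at 9 somites. In the HoxA13 group the vector held HoxA13, a posterior Hox transcription factor, under the CAGGS promoter, which is active in most cell types, together with the nuclear reporter H2B-Venus. In the control group it held H2B-Venus alone. Each group had 2 arrays, numbered 1 and 2 by the labels, and each array held the primitive streak region of 7 pooled embryos, so the tests measure the spread between pools. Electroporated cells were not separated from their neighbours, and the share that carried the vector was not given in the sources used here.

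The share of chicken probe sets that exceeded background ranged from 37.8% to 42.7% across the arrays. Background, the 99th percentile of 687 viral probe sets taken per array, lay between 12.8 and 16.5 intensity units. The only HOXA13 probe set read 16.3 and 8.09 on the HoxA13 arrays and 11.6 and 24.7 on the controls, so it did not separate the groups. The sources used here do not give which part of the transcript the vector carried. This probe set therefore does not check the labels, and the groups are named by their labels throughout. Of 9 markers of the streak and of presomitic mesoderm progenitors, 8 were above background on all 4 arrays. The summed intensity of the 9 was 14543 to 15279 on the HoxA13 arrays and 11226 to 12858 on the controls. They did not share a direction. FGF8, WNT3A, CDX2, CDX4, EVX1 and CYP26A1 were higher on both HoxA13 arrays. MSGN1 was lower on both, at 1399 and 1244 against 2040 and 1480. TBXT, the brightest, overlapped at 6483 and 5820 against 5873 and 5508, and TBX6 was not above background on any array. Among markers of other tissues, 3 lists were dimmer on both HoxA13 arrays. The summed intensity of 4 endoderm markers was 27.5 to 74.3 on the HoxA13 arrays and 373 to 446 on the controls, with 1 of the 4 above background on every array. HHEX made up most of this, at 44.2 and 9.39 against 336 and 419, while FOXA2 read 19.4 and 15.7 against 20.6 and 19.9. For 7 blood and endothelium markers these sums were 38.3 to 77.6 and 214 to 272, with 0 above background on every array, and for 7 lateral mesoderm markers they were 39.2 to 68.2 and 145 to 188, with 1 above on every array. Single genes again made up most of the control sums, FLT1 at 33.6 and 0.991 against 212 and 153 and PRRX1 at 16.6 and 29.9 against 109 and 113. The sums of the neural plate, somite and surface ectoderm markers overlapped between the groups, at 143 to 237 against 179 to 185, 68.0 to 101 against 79.0 to 96.6 and 138 to 448 against 321 to 440. Single markers in these lists still differed without overlap, and in the somite list they went opposite ways. MEOX1 was lower, at 13.6 and 23.1 against 45.5 and 67.3, and PAX9 higher, at 48.7 and 67.3 against 23.9 and 14.7. In the neural plate list PAX6 was higher, at 30.1 and 19.9 against 8.69 and 10.3. The part that these tissues played in the values below was not tested. The replicate 2 arrays were also brighter than the replicate 1 arrays in 27 of 27 spike-in controls (median log2 difference 0.75).

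Transcripts of the core machinery were detected on every array, while many of the FBXL and FBXO receptors were not. A probe set above background on all 4 arrays was found for 36 of 36 proteasome genes, 4 of 4 UBA genes, 23 of 24 UBE2 genes, 7 of 7 cullins and 5 of 5 FBXW genes. The same held for 31 of 41 USP genes, 13 of 28 FBXO genes and 5 of 14 FBXL genes. Over all 161 genes the count was 126, or 78.3%, against 6972 of 13009 genes (53.6%) with a symbol. The number of member probe sets above background was 210 and 215 on the HoxA13 arrays and 219 and 202 on the controls, so the groups overlapped in how much of the system was detected. By probe set, 184 of 357 were above background on all 4 arrays, 59 on some and 114 on none. The mean over the 4 arrays was above background for 209, which are called the measured probe sets below.

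None of the members passed the test of HoxA13 against control. Differences are HoxA13 minus control on the log2(intensity + 16) scale, fitted with limma over all chicken probe sets, and they understate changes of dim probe sets. Of the 357 member probe sets, 0 rose and 0 fell at an adjusted p under 0.05, beside 0.0% of all chicken probe sets that rose and 0.00265% that fell, which is a single probe set. The smallest adjusted p among members was 0.968. Without adjustment, 3 member probe sets (0.840%) had a limma p under 0.05, beside 3.85% of all chicken probe sets. Among measured probe sets it was 1 of 209 (0.478%), beside 4.57%. No member differed by more than 1 on the log2 scale, as did 0.65% of chicken probe sets, and the range was -0.89 to 0.91. The median difference over all members was 0.02 and over all chicken probe sets 0.01. An exact two-sided permutation test of 2 arrays against 2 has 0.333 as its smallest p, so the ranges and intervals below carry most of what the data hold. In RNA from a whole region, fewer cells of a type and less RNA per cell cannot be told apart.

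The differences and the gaps between replicates were of about the size seen over the whole array. Over the measured member probe sets the median size of the difference was 0.17, and the median gap between the 2 arrays of a group was 0.25 for HoxA13 and 0.33 for the control. Over all measured chicken probe sets these were 0.19, 0.26 and 0.32. A difference between means of 2 arrays varies less than a gap between single arrays, so the first value cannot be read against the others. The 95% interval of the difference lay within 1 log2 unit on either side of 0 for 157 of the 209 (75.1%), beside 68.2% of measured chicken probe sets. For the proteasome this held for 43 of 48 measured probe sets (89.6%), and for the F-box genes for 30 of 47 (63.8%). For the remaining 52 measured probe sets the arrays did not bound the difference at that size.

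**Figure D1:**
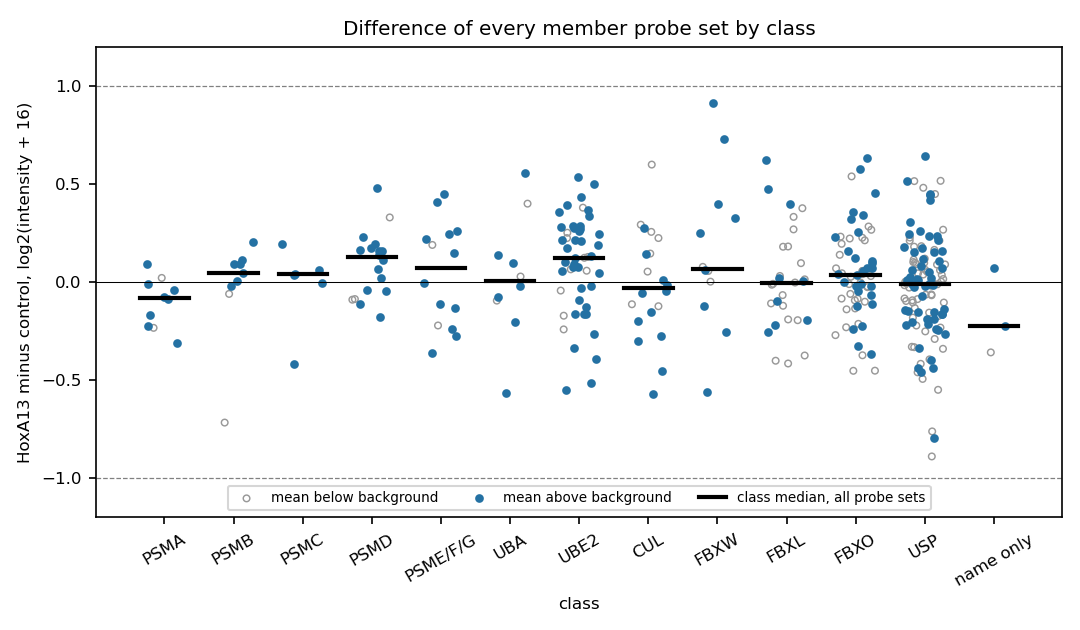
Difference of each member probe set, HoxA13 minus control on the log2(intensity + 16) scale, by class (1 point per probe set, 2 arrays per group). Filled points had a mean above background, open points did not, and bars mark the class median over all probe sets. The last column holds PSMC3IP and USP6NL, which matched by name only. Every point lies between the dashed lines at -1 and 1, and the medians of the other classes lie between -0.08 and 0.13.

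The catalytic core of the proteasome had overlapping groups wherever it was measured. All 8 measured PSMA and all 7 measured PSMB probe sets overlapped between HoxA13 and control, with median differences of -0.08 and 0.09. Over the array, 9567 of 14250 measured chicken probe sets overlapped. PSMB2, a subunit of the beta ring, read 2166 and 2122 on the HoxA13 arrays and 2154 and 2187 on the controls. The 4 arrays thus agreed closely, and the difference of -0.02 had a 95% interval of -0.40 to 0.37. PSMB7, which carries the trypsin-like cutting site, read 2698 and 3222 against 2799 and 2730. Only HoxA13 replicate 2 stood higher, and the interval of the difference of 0.09 ran from -0.30 to 0.48. PSMB5, the chymotrypsin-like subunit, read 62.7 and 49.7 against 41.6 and 51.8 on its brighter probe set, again with overlap.

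In the alpha ring, which gates the entrance of the barrel, all 8 measured probe sets overlapped between the groups. PSMA4 read 1997 and 2193 on the HoxA13 arrays and 2084 and 2864 on the controls, a difference of -0.22 ± 0.20 (SE). Control replicate 2 was the high array, and without it the difference was 0.0061. Control replicate 2 was also the highest array for PSMA6, at 2395 and 2526 against 2299 and 3330. PSMA2 split by replicate number instead, at 1466 and 951 against 1814 and 1188, and was dimmer on the HoxA13 array of each number, by 0.30 and 0.32 on the log2 scale.

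Of the ATPases that unfold substrates, 3 of 5 genes were ordered by replicate number in both groups. PSMC2 read 3151 and 2415 on the HoxA13 arrays and 2891 and 2010 on the controls, and PSMC6 read 2177 and 1583 against 2439 and 1295. In both, each replicate 1 array was brighter than each replicate 2 array. Their differences between groups were 0.19 ± 0.23 and 0.06 ± 0.30 (SE). PSMC1 behaved alike at 654 and 492 against 648 and 472. PSMC5 and PSMC3 were not ordered in this way. PSMC5 read 836 and 706 against 729 and 761, and PSMC3 read 155 and 128 against 134 and 150 on its brighter probe set. All 6 PSMC probe sets overlapped between the groups, beside 9567 of 14250 measured chicken probe sets.

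Most PSMD genes code for subunits of the regulatory particle, while PSMD5, PSMD9 and PSMD10 code for factors of its assembly. Of 15 measured PSMD probe sets, 3 were higher in both HoxA13 arrays than in both controls and 1 was lower. The background for measured chicken probe sets was 18.6% higher and 14.3% lower without overlap. PSMD14, the metalloprotease that removes ubiquitin from substrates as they enter, read 2267 and 2233 on the HoxA13 arrays and 2211 and 1885 on the controls. The groups were apart, but the HoxA13 arrays stood only just above control replicate 1, and the interval was -0.27 to 0.54. PSMD3, a scaffold of the lid, read 180 and 194 against 157 and 157, a difference of 0.23 ± 0.27 (SE). PSMD5 was higher without overlap on its brighter probe set, at 943 and 1069 against 862 and 935, by 0.16 ± 0.21 (SE). Its dimmer probe set overlapped. PSMD1, a large scaffold of the base, read 964 and 1179 against 1042 and 828 and overlapped. PSMD7 overlapped on its brighter probe set too, at 1639 and 1541 against 1618 and 1422, a difference of 0.07 ± 0.19 (SE).

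The brightest probe sets of the activators and of a regulator of the proteasome were higher on both HoxA13 arrays than on both controls. Of the 12 measured PSME, PSMF and PSMG probe sets, 4 (33.3%) were higher without overlap and 2 (16.7%) lower. Over measured chicken probe sets these shares were 18.6% and 14.3%. PSME4, the activator known as PA200, read 937 and 892 on the HoxA13 arrays and 738 and 785 on the controls. PSME3, an activator of the nucleus, read 815 and 806 against 795 and 668. PSMF1, the regulator known as PI31, read 307 and 391 against 260 and 254. The controls of PSMF1 were close together and both HoxA13 arrays stood above them. None passed, and the differences were 0.26 ± 0.21, 0.15 ± 0.22 and 0.41 ± 0.26 (SE, limma unadjusted p = 0.244, 0.510 and 0.152). Dimmer probe sets did not share this order. A second one of PSME3 read 35.2 and 23.2 against 40.5 and 33.5 with overlap, and of 2 further ones of PSME4 one overlapped and the other was lower without overlap, at 40.2 and 43.1 against 44.3 and 50.1. The assembly chaperones of the PSMG class did not share a direction. PSMG1 was lower without overlap at 308 and 304 against 325 and 341, a difference of -0.11, and PSMG4 differed in sign between its probe sets, as given further below.

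**Figure D2:**
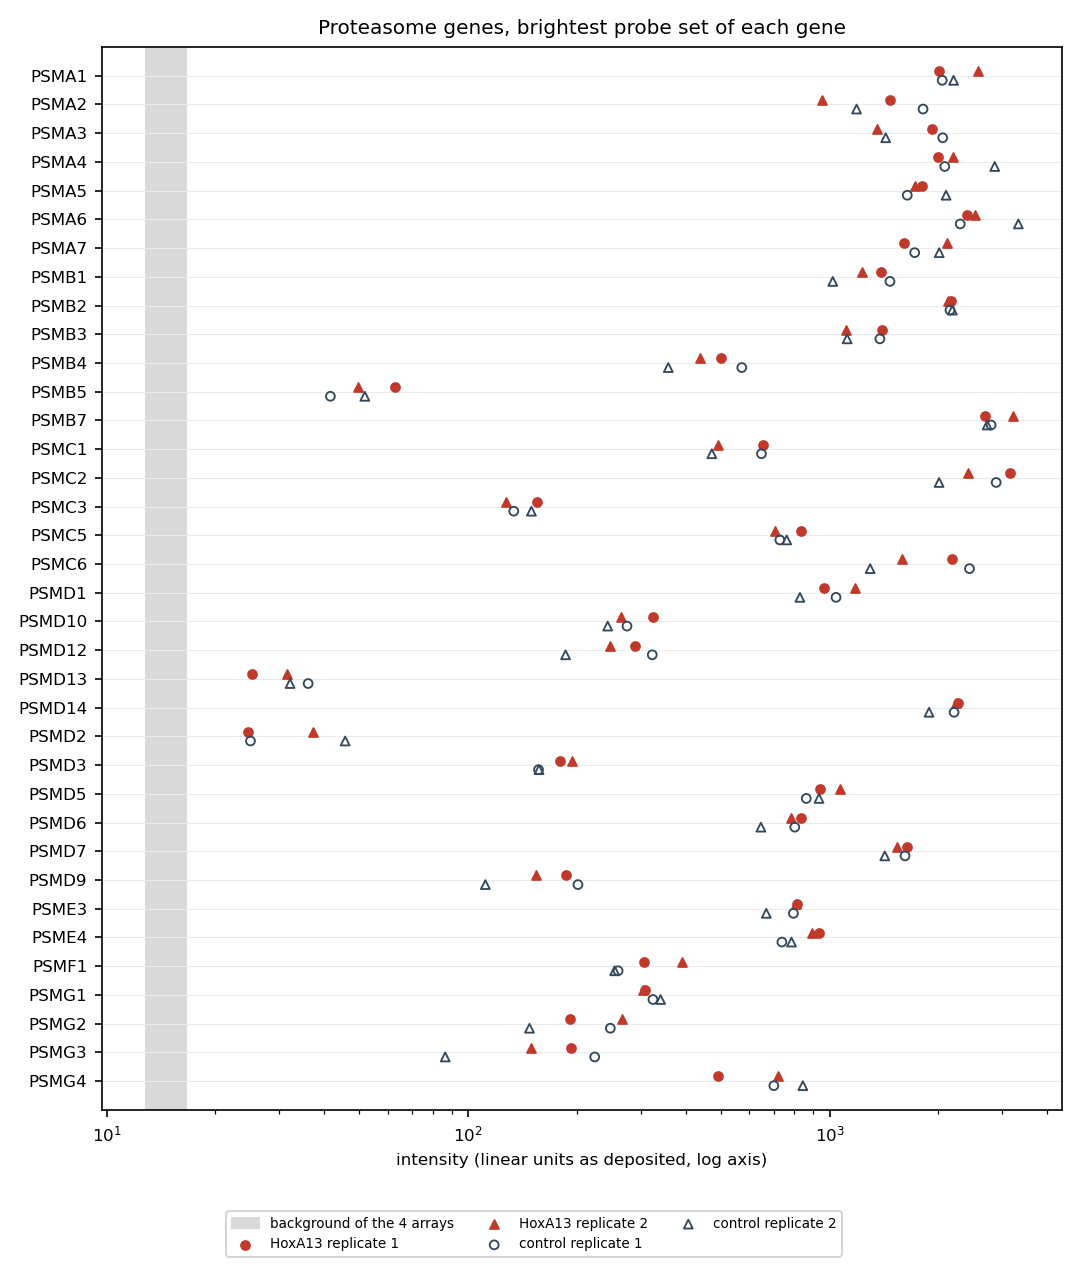
Intensity of the brightest probe set of each of the 36 proteasome genes on the 4 arrays (log axis, filled red for HoxA13, open blue for control, circles for replicate 1, triangles for replicate 2, grey band for the range of background). All genes lie above the band, and in PSMC2 and PSMC6 the circles lie to the right of the triangles in both groups.

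Among the activating enzymes, with a median difference of 0.00 over 10 probe sets, groups without overlap were seen for UBA2 only. UBA2, the catalytic subunit that activates SUMO, read 78.9 and 69.4 on the HoxA13 arrays and 130 and 106 on the controls on its dimmer probe set. Both HoxA13 arrays were below both controls, a difference of -0.57 ± 0.29 (SE, limma unadjusted p = 0.0812). Its brighter probe set gave 560 and 387 against 616 and 471, with overlap and a difference of -0.20. The other enzymes overlapped. UBA3, which activates NEDD8, the modifier that switches cullins on, read 734 and 739 against 933 and 647. UBA6, which activates ubiquitin, read 423 and 310 against 416 and 324, and UBA7, which activates ISG15, read 69.2 and 78.4 against 58.8 and 73.0.

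Of the 39 measured UBE2 probe sets, 8 (20.5%) were higher in both HoxA13 arrays and 4 (10.3%) lower, beside 18.6% and 14.3% of measured chicken probe sets. The median difference was 0.13. This median was not the same in both replicate numbers, at -0.07 between the replicate 1 arrays and 0.35 between the replicate 2 arrays. UBE2D3, an enzyme used by many ligases, read 3505 and 3886 on the HoxA13 arrays and 3675 and 3416 on the controls. It overlapped, and the interval of -0.30 to 0.42 was the narrowest of the UBE2 genes named here. UBE2N, which builds the chains linked through lysine 63 used in signalling, read 3242 and 3405 against 2687 and 3410. UBE2K, which builds chains that target proteins to the proteasome, read 923 and 1013 against 820 and 779, higher on both HoxA13 arrays, by 0.27 ± 0.21 (SE). Its dimmer probe set overlapped at 72.0 and 57.8 against 64.9 and 68.0, a difference of -0.03. On its dimmer probe set UBE2G1 read 192 and 221 against 154 and 129, a difference of 0.50 ± 0.28 (SE, limma unadjusted p = 0.102), without overlap. Its brighter probe set overlapped at 955 and 698 against 906 and 521, a difference of 0.24 ± 0.30 (SE). UBE2T, which acts in the repair of crosslinked DNA, read 464 and 471 against 603 and 323, and here the controls lay on either side of the HoxA13 arrays.

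Among the cullins, 1 of 12 measured probe sets (8.33%) was higher without overlap and 3 (25%) were lower, beside 18.6% and 14.3% of measured chicken probe sets. The median difference was -0.10. CUL4B, which builds ligases with DDB1, read 399 and 362 on the HoxA13 arrays and 415 and 378 on the controls on its brightest probe set. The difference of -0.06 had an interval of -0.61 to 0.49. A dim probe set of CUL4B was not above background on either HoxA13 array and read 17.4 and 28.6 on the controls. With the HoxA13 arrays raised to background, their mean was at least 1.55-fold lower (adjusted p = 0.968, limma). The interval of the difference ran from -1.22 to 0.08 and included no change, so a lower level was not established. Other CUL4B probe sets without overlap went both ways, with -0.30 on a measured one and 0.60 on one whose mean was not above background. CUL3, which pairs with BTB proteins, read 87.7 and 87.5 against 80.3 and 147 on its brightest probe set, where control replicate 2 alone was high. A second CUL3 probe set read 53.9 and 75.3 against 86.3 and 101, lower on both HoxA13 arrays, by -0.45 ± 0.30 (SE). CUL1, the scaffold of the F-box ligases, read 41.6 and 26.6 against 28.8 and 42.5, and its groups overlapped. CUL2 (43.5 and 31.3 against 39.0 and 34.3), CUL4A (82.4 and 78.9 against 124 and 71.9) and CUL5 (48.6 and 72.0 against 35.9 and 73.8) overlapped too. CUL9, a large cullin of the cytoplasm, read 89.9 and 69.3 against 66.2 and 59.1, a difference of 0.27 ± 0.29 (SE).

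FBXW5 had the largest difference of all members. This F-box protein with WD repeats is a receptor for ligases that act on centrosome duplication. One probe set read 94.1 and 156 on the HoxA13 arrays and 42.8 and 74.5 on the controls. Another read 141 and 231 against 87.0 and 121, and the remaining measured one 53.3 and 60.4 against 32.5 and 46.8. On all 3 both HoxA13 arrays were brighter than both controls, and each replicate 2 array was brighter than the replicate 1 array of its group. The differences were 0.91 ± 0.35, 0.73 ± 0.33 and 0.40 ± 0.30 (SE). The first had a 95% interval of 0.11 to 1.72 and a limma unadjusted p of 0.0302, with an adjusted p of 0.968, so FBXW5 did not pass. It was the only measured member with an unadjusted p under 0.05. Within replicate numbers its difference was 0.91 and 0.92. The probe sets of one gene read the same RNA and are not replicates of the condition.

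The other FBXW receptors did not share this pattern. FBXW7, the receptor for cyclin E, Notch and MYC, read 199 and 165 on the HoxA13 arrays and 189 and 158 on the controls, which differed by 0.06 with an interval of -0.57 to 0.69. FBXW11, a receptor for beta-catenin, gave opposite directions on a pair of probe sets. One read 780 and 729 against 829 and 982, lower on both HoxA13 arrays, and the other 481 and 445 against 388 and 384, higher on both, with differences of -0.25 and 0.25. As a class, 4 of 9 measured FBXW probe sets (44.4%) were higher without overlap and 2 (22.2%) lower, beside 18.6% and 14.3% of measured chicken probe sets. Of the 4 higher ones, 3 are those of FBXW5.

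The FBXL and FBXO receptors were mostly dim. Of 9 measured FBXL probe sets, 3 (33.3%) were higher without overlap and 0 lower. Of 29 measured FBXO probe sets, 5 (17.2%) were higher and 1 (3.45%) lower. The shares of measured chicken probe sets were 18.6% and 14.3%. FBXL20 read 53.6 and 69.6 on the HoxA13 arrays and 34.2 and 34.0 on the controls, a difference of 0.62 ± 0.29 (SE, limma unadjusted p = 0.0613). The control arrays were nearly equal and both HoxA13 arrays lay above them. FBXL18 was higher without overlap on both of its measured probe sets, at 21.0 and 39.6 against 17.0 and 16.3 on the first and 24.5 and 25.2 against 18.3 and 12 on the second. Control replicate 2 was below background on each. FBXL17 (109 and 71.2 against 140 and 53.6), FBXL21 (177 and 233 against 263 and 229) and FBXL5, the iron-sensing receptor (72.4 and 43.6 against 88.2 and 41.7), overlapped. Among FBXO genes, FBXO7 read 664 and 731 against 747 and 650, FBXO9 539 and 604 against 643 and 433, and FBXO11 316 and 238 against 316 and 197, all with overlap. FBXO3 read 31.9 and 60.0 against 37.2 and 14.7. Its difference of 0.58 ± 0.37 (SE) came from the replicate 2 arrays, which differed by 1.31, while the replicate 1 arrays differed by -0.15. FBXO5, the inhibitor of the anaphase promoting complex, read 21.1 and 0.598 against 15.6 and 7.62 and was above background on the replicate 1 array of each group only. FBXO39 read 24.9 and 26.8 against 21.0 and 9.20, higher on both HoxA13 arrays, with control replicate 2 below background. A dim probe set of FBXO30 was not above background on either HoxA13 array and read 16.7 and 30.6 on the controls. With the HoxA13 arrays raised to background, their mean was at least 1.57-fold lower (adjusted p = 0.968, limma). The interval of the difference ran from -1.02 to 0.28, so a lower level was not established here either.

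Among the measured deubiquitinase probe sets, USP8 had the largest difference toward the control. USP8 removes ubiquitin from receptors on endosomes and influences whether they are recycled. One probe set read 119 and 121 on the HoxA13 arrays and 138 and 347 on the controls, and the other measured one 378 and 357 against 494 and 514. Both HoxA13 arrays were below both controls on each, but in the first the distance rested on control replicate 2. The differences were -0.80 ± 0.40 and -0.44 ± 0.24 (SE, limma unadjusted p = 0.0795 and 0.0957). Within replicate numbers the second probe set differed by -0.37 and -0.51, the first by -0.19 and -1.41. USP15, which acts on components of TGF-beta signalling, was also lower on both HoxA13 arrays, at 123 and 141 against 159 and 201, by -0.40 ± 0.28 (SE).

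In the other direction, USP48 was higher on both HoxA13 arrays on both of its probe sets, at 216 and 219 against 143 and 169 on the first and 124 and 112 against 96.6 and 102 on the second. Their differences were 0.45 ± 0.27 and 0.22 ± 0.28 (SE). USP37, which stabilises cyclin A, read 78.1 and 84.2 against 65.4 and 40.6, a difference of 0.52 ± 0.31 (SE). USP14, which sits on the proteasome and trims ubiquitin chains there, read 399 and 863 against 539 and 1032. Both replicate 2 arrays were far above both replicate 1 arrays, so the difference of -0.34 carried an interval of -1.26 to 0.59. USP7, which acts on MDM2 and p53, read 645 and 503 against 610 and 481, a difference of 0.07 with an interval of -0.50 to 0.64. USP1, which acts in DNA repair, read 894 and 946 against 819 and 992, and USP22, part of the SAGA complex, read 26.9 and 21.2 against 22.9 and 17.1. Both overlapped. Over the class, 10 of 54 measured USP probe sets (18.5%) were higher without overlap and 8 (14.8%) lower, beside 18.6% and 14.3% of measured chicken probe sets. The median difference was 0.00.

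**Figure D3:**
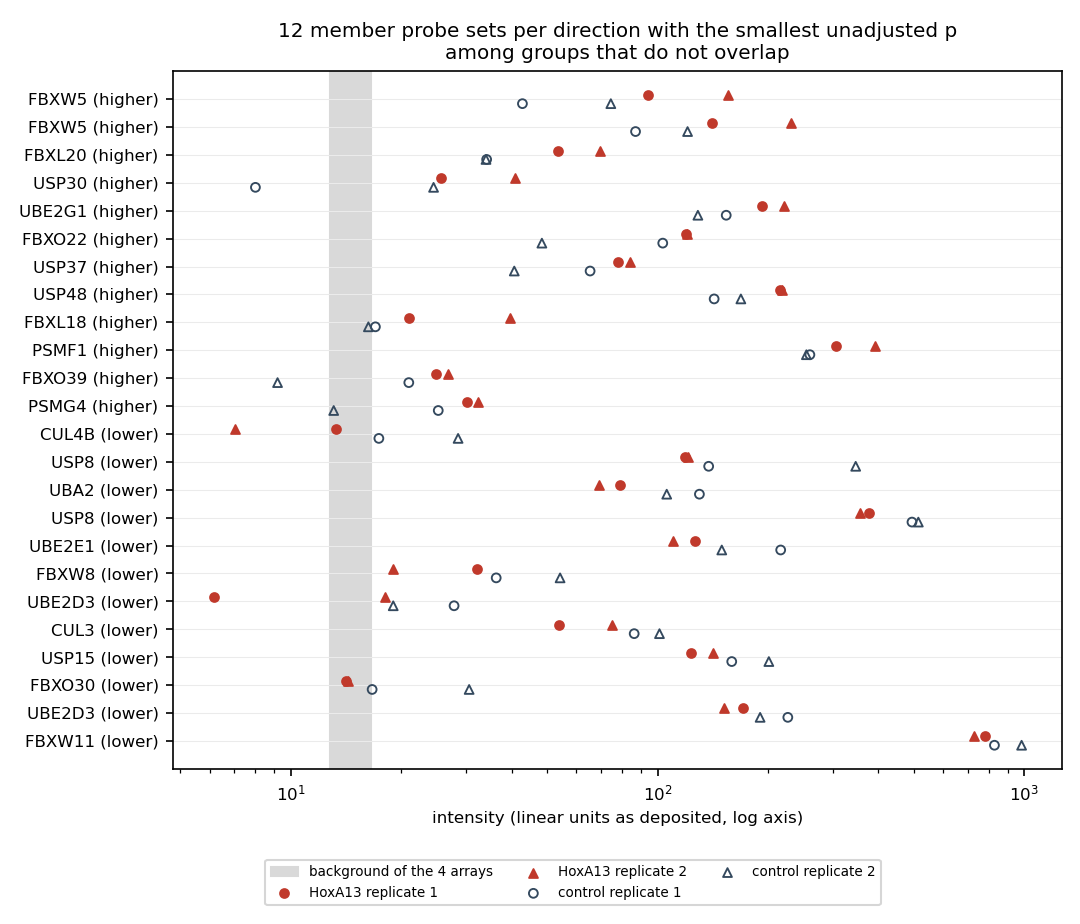
Intensity on the 4 arrays (log axis) of the member probe sets whose groups did not overlap and whose mean was above background, 12 per direction by smallest unadjusted p (filled red for HoxA13, open blue for control, circles for replicate 1, triangles for replicate 2, grey band for the range of background). A gene named on several lines has several probe sets there, and the CUL4B and FBXO30 probe sets have both HoxA13 arrays at or below the band.

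Counting all members, 63 probe sets (17.6%) were higher in both HoxA13 arrays than in both controls and 52 (14.6%) lower, beside 17.0% and 16% of all chicken probe sets. Among measured probe sets, 38 of 209 (18.2%) were higher and 22 (10.5%) lower, beside 18.6% and 14.3%. The shares of higher probe sets were close to those of the whole array, and the share of lower ones among measured probe sets was smaller. A direction was the same within both replicate numbers for 184 of 357 member probe sets (51.5%) and for 103 of the 209 measured ones (49.3%), beside 52.4% of all chicken probe sets and 55.4% of the measured ones. Outside the measured probe sets, the smallest unadjusted p values belonged to USP13 and to a second PSMB5 probe set, both chosen here after their values were seen. USP13 read 0.696 and 1.74 on the HoxA13 arrays and 15.5 and 16.3 on the controls, where control replicate 1 alone was above background. The PSMB5 probe set read 8.38 and 0.818 against 13.4 and 21.7. Both had a mean at or below background and an adjusted p of 0.968 (limma).

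**Figure D4:**
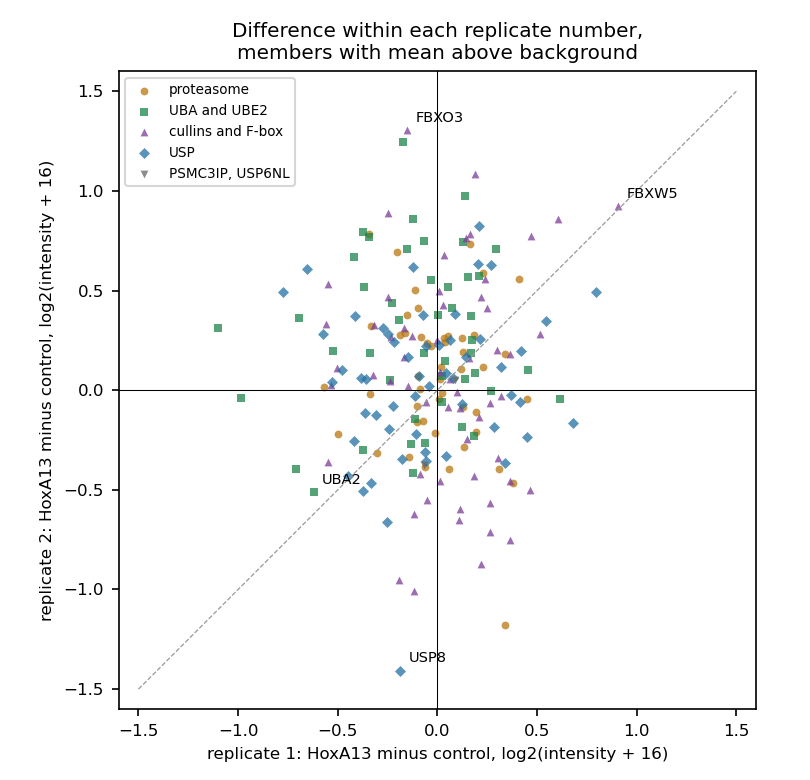
Difference between the HoxA13 and control arrays of replicate 1 (x axis) and of replicate 2 (y axis) for the 209 measured member probe sets, on the log2(intensity + 16) scale, coloured by class. The points form no band along the dashed line of equal difference, 103 lie in the quadrants of equal sign, and FBXW5 at 0.91 and 0.92 lies on the line while USP8 and FBXO3 depend on replicate 2.

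Genes read by several probe sets often gave both signs. Of 56 member genes with more than 1 measured probe set, 29 (51.8%) had probe sets that differed in sign, beside 1234 of 2587 genes (47.7%) over the array. Only 4 had all measured probe sets without overlap in one direction, namely FBXW5, FBXL18 and USP48 toward HoxA13 and USP8 toward the control. Among 2587 genes on the array this was 109 toward HoxA13 and 81 toward the control. The widest spread was in FBXO22, a receptor for histone demethylases, where 5 probe sets ranged from -0.33 to 0.64. Its brightest probe set read 517 and 647 on the HoxA13 arrays and 442 and 464 on the controls, and another read 35.1 and 16.2 against 27.9 and 43.0. UBE2E1 followed, at 126 and 110 against 216 and 150 on one probe set, lower without overlap, and 48.2 and 52.7 against 39.5 and 30.1 on the other, higher without overlap. The differences were -0.55 ± 0.30 and 0.39 ± 0.29 (SE). FBXW8 ranged from -0.56 to 0.33, USP30, a deubiquitinase of mitochondria, from -0.20 to 0.64, PSMG4 from -0.36 to 0.45 and USP4 from -0.19 to 0.45. UBE2D3 also had a probe set at 171 and 152 against 226 and 190, lower without overlap by -0.34 ± 0.27 (SE), beside its bright one that overlapped. Which exons or transcript ends these probe sets read was not analysed here.

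**Figure D5:**
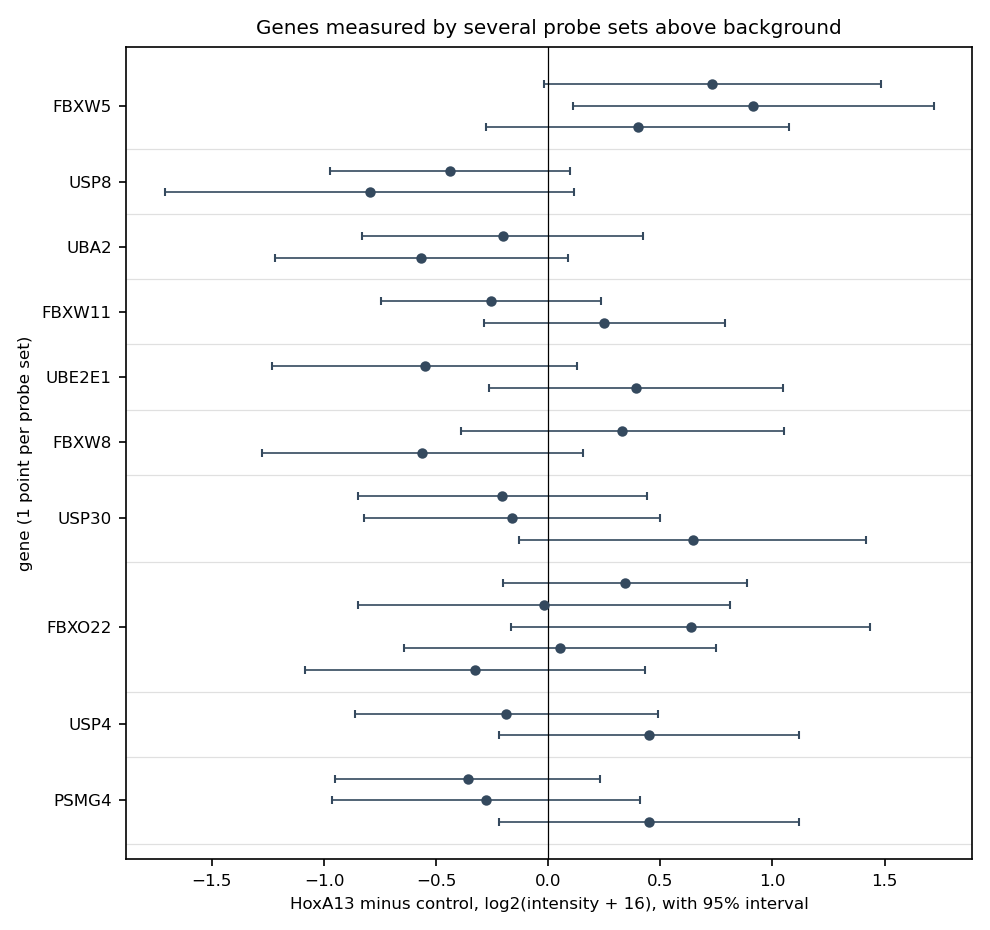
Difference and 95% interval from limma, HoxA13 minus control on the log2(intensity + 16) scale, for each measured probe set of 10 genes with several. FBXW5, USP8 and UBA2 keep one sign on all measured probe sets, the other genes, such as FBXW11 and UBE2E1, take both signs, and all intervals but 1 of FBXW5 include 0.

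The remaining pathway, given by a list of 141 symbols outside the name rule, was read for 111 genes, of which 98 had a probe set with a mean above background. Some genes were listed under both an old and a new symbol. By the brightest probe set of each gene, 0 rose and 0 fell, 0 had a limma unadjusted p under 0.05, and the median difference was 0.05. Over all 111 genes, 23 were higher without overlap and 12 lower. Of 13 genes of the anaphase promoting complex, a ligase that drives the exit from mitosis, 12 were measured, and their median difference was 0.27. This was the highest median of the lists. Without overlap, 6 of these 12 were higher, where 18.6% of measured chicken probe sets were. The 6 count only the brightest probe set of each gene and the 18.6% every measured probe set, so the units differ. None passed the test (limma, smallest adjusted p = 0.968). ANAPC2, its cullin-like subunit, read 127 and 157 on the HoxA13 arrays and 90.9 and 85.5 on the controls, a difference of 0.60 ± 0.28 (SE, limma unadjusted p = 0.0661). CDC23, another subunit, read 701 and 684 against 561 and 445, a difference of 0.46 ± 0.23 (SE). FZR1, an activator of the complex, was not above background on any array and was not among the 12. UBQLN4, a shuttle that brings tagged proteins to the proteasome, read 247 and 284 against 199 and 169, a difference of 0.49 ± 0.27 (SE). The COP9 signalosome, which removes NEDD8 from cullins, had 8 measured genes with a median of 0.04. Without overlap, 0 of these were higher and 2 lower, beside 18.6% and 14.3% of measured chicken probe sets. The 33 measured ligases of the HECT, RING and U-box families had a median of 0.03. Over all 40 ligases read, 5 were higher without overlap and 4 lower.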

How the data were processed

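RNA from 4 pools of embryos, extracted with Trizol, was, per the labels' protocols, amplified in 2 cycles, biotin-labelled and put on a chicken Affymetrix array. The authors deposited 1 linear intensity per probe set. R 2.12.1 is named in the submitters' processing notes. The sources used here do not give the summary method, background correction or scaling. The intensities were used unaltered, and an unknown scaling could shift all differences together. The number of arrays limits the precision.

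Differences were fitted with limma 3.58.1 in R 4.3.3 (lmFit, eBayes with trend and robust prior) for log2(intensity + 16) of all 37695 chicken probe sets without a filter. Tests were two-sided, p-values were adjusted by Benjamini-Hochberg, and the threshold was 0.05. The offset lies near the viral background. The fit was tested on simulated data. Where a group was below background on both arrays, its arrays were raised to their background before the mean log2 intensities were compared, and the fold is written "at least".

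The members, lists and naming rule were chosen with earlier results of these data known. Named were, per class, the 2 brightest genes and the 2 of smallest unadjusted p, per direction the 12 measured probe sets of smallest p without overlap, 38 fixed genes, the 6 genes of widest disagreement between probe sets, and 4 of the other pathway genes. Of the fixed genes, PSMB6, PSMD4, PSMD11, UBA1, UBE2C, UBE2M, UBE2S and USP9X had no probe set with a single symbol here. Second probe sets of FBXW5, FBXW11, FBXL18 and USP48 were added after their values were seen. Symbols came from the platform annotation and can be old. Another 7 probe sets that pair a member symbol with a further one, or list one in duplicate, were left out. Promoter and protein sequences were not used here. Alternatives were other offsets, filters on dim probe sets, quantile or median scaling, a plain prior, the replicate number as a block and leaving out each array.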

Additional observations from a re-analysis of the deposited data

How the results depend on the processing

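The members gave 0 higher and 0 lower probe sets under all 13 alternatives, and their median difference stayed between -0.01 and 0.07. Over all chicken probe sets, with 0 higher and 1 lower in the planned fit, the filter for probe sets above background on at least 2 arrays gave 3 higher and 10 lower, and the filter on the mean gave 2 and 8. Median centring gave 3 lower, the plain prior 0 lower, and leaving out each array 0 lower. Offsets of 32 or none and quantile scaling left the 1 lower. The replicate numbers are shared by the groups but tied to nothing in the labels, and the deviations of equally numbered arrays correlated at 0.205. With the replicate block, 29 chicken probe sets were higher and 74 lower, and with the block and the 2-array filter, which was added after seeing the data, 53 and 107, again without a member. Under the block alone, 14 members (3.92%) had an unadjusted p under 0.05, beside 5.60% of chicken probe sets. The smallest adjusted p of a named probe set in any of these fits was 0.139, for FBXW5 with block and filter. Of the 84 named probe sets, differences changed sign in 52 of 336 fits that left out an array in 5 of 752 under other settings and in 29 of 168 differences within a replicate number. Beyond the size of its own SE this was PSMA4, which ranged from -0.45 to 0.0061 with an array left out, the latter without control replicate 2, and FBXO3, which was -0.15 between the replicate 1 arrays. The cause was not tested. Leaving out an array raised the counts without overlap from 63 to between 116 and 143 higher and from 52 to between 97 and 124 lower, since fewer arrays separate more easily. Of the 357 member probe sets, 148 had a mean at or below background, where a level could not be told from background.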

Other observations

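Probe sets that pair a member symbol with a second gene were left out of the counts above. One for CCDC50 and PSMD6 read 1726 and 1500 on the HoxA13 arrays and 2053 and 1969 on the controls, lower without overlap by -0.32 ± 0.18 (SE). PSMD6, a subunit of the lid, has a probe set of its own, which read 832 and 783 against 801 and 646, overlapped and differed by 0.16 ± 0.22 (SE). For PSMD4, the ubiquitin receptor of the proteasome, all probe sets here were shared with PIP5K1A. The brightest of them read 281 and 240 against 240 and 234, and the next 151 and 150 against 167 and 166. The first was higher and the second lower without overlap, with differences of 0.12 ± 0.26 and -0.13 ± 0.27 (SE).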
